A study of Mus musculus with 6 samples.

Results

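The genes of the heat shock response were examined in the pancreas of mice with and without Cftr: Hspa1a, Hspa1b, Hspa8, Hsph1, Hsp90aa1, Hsp90ab1, Dnajb1, Hspb1, Cryab and Hspd1. They were chosen by name, as the main cytosolic heat shock proteins, and every probe set that the platform annotation assigns to them was taken. Of the 10 genes, 9 had a probe set, out of 8251 genes named on the array; none was assigned to Hsp90ab1, the constitutive Hsp90, which is not analysed here. The 9 genes had 12 probe sets. Hspd1 encodes a chaperonin of the mitochondria, so the label cytosolic holds for the other 8 measured genes only.

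Total RNA of the pancreas was hybridised to 6 one-colour oligonucleotide arrays, each with the RNA of a single male mouse aged 56 to 58 days. The control group was 3 mice of genotype gastrin+/-, CFTR+/+, and the group called CF here was 3 mice of genotype gastrin+/-, CFTR-/-, so that all 6 mice lacked a gastrin allele. The strain background was mainly black6 with a minor 129Sv share, and Peptamen, a peptide-based diet that prevents obstruction of the bowel, was given to both groups from a young age. Replicates 1, 2 and 3 are numbered by the suffix of the sample titles (none, B and P), and the label of control replicate 1 alone says that the whole organ was taken.

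Heat shock proteins are chaperones. Hsp70 and Hsp90 bind unfolded or unstable client proteins in cycles of ATP hydrolysis, J proteins such as Dnajb1 deliver clients to Hsp70, Hsp110 proteins such as Hsph1 release the nucleotide from it, and small heat shock proteins hold unfolded clients without ATP. In stressed cells the transcription factor HSF1 forms trimers and binds heat shock elements, inverted repeats of the bases GAA, in the promoters of these genes. In the rodent pancreas, inducible Hsp70 is best known for its induction by heat and for its study in experimental pancreatitis.

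Among the heat shock genes, none differed between CF and control pancreas past the threshold of an adjusted p under 0.05. The limma fit called 0 of the 10 probe sets bright enough to be tested, against 5 of all 7739 tested (0.0646%), and 1 of 10 had an unadjusted p under 0.05 (7.38% of all tested). Inducible Hsp70 had the lowest log2 differences of the tested probe sets: Hspa1a was lower in all 3 CF mice than in any control mouse, and Hspa1b varied more among the 3 control mice than between the groups. Hspd1 was higher in CF in all 3 same-suffix comparisons on both of its probe sets, with overlapping groups. These were 2 of the 10 tested heat shock probe sets, near the 17.8% of all tested probe sets with this order. No label gives the pairing by suffix. Hspb1 was too dim to be tested and had higher values in all 3 CF mice.

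Hspa1a and Hspa1b encode the stress-inducible form of Hsp70, and are neighbouring intronless genes with nearly the same coding sequence. Their promoters are shown because Hspa1a had the smallest p and because they are near copies. The windows are the 250 bases before the RefSeq transcription start in build GRCm38.p6, at chr17:34972157-34972406 for Hspa1a and chr17:34959239-34959488 for Hspa1b, both on the minus strand. Capitals mark the motif GAANNTTC, which reads the same on both strands and holds a pair of inverted GAA units of a heat shock element.
Hspa1a: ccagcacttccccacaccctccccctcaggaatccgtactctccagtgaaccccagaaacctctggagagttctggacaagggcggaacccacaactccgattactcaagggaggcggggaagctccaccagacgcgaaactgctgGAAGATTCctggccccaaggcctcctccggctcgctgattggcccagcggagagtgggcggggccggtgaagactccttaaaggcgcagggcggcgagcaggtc
Hspa1b: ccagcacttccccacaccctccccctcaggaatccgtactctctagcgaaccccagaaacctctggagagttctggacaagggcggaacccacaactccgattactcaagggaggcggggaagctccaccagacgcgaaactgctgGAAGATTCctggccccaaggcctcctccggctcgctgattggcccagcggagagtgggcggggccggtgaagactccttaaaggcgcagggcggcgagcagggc

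The Hspa1a and Hspa1b windows were identical at 247 of 250 bases. With positions counted from 1 at the 5′ end and the base of Hspa1a given first, they differed by C44T, T47C and T249G, all outside the marked motif. The motif began 104 bases before the start in both. It was in 6.79% of all 27025 promoter windows of the same length, and a match is a description of letters, not evidence of binding. How far each Hspa1 probe set reads RNA of the other copy was not tested, so the values of the pair are uncertain as values of a single gene.

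The Hspa1a probe set (93875_at) had intensities of 1579, 450.1 and 640 in control replicates 1, 2 and 3, and of 234, 321 and 222 in CF replicates 1, 2 and 3. All 3 CF values lay below the lowest control value, and control replicate 1 stood well above the other 2 controls. The means were 890 ± 604 in controls and 259 ± 53.8 in CF (intensity, SD, n = 3 per group), and the log2 difference of CF minus control was -1.59 ± 0.44 (SE; 95% interval -2.58 to -0.60), a level 3.01 times as high in controls. It had an unadjusted p of 0.0056 and an adjusted p of 0.37 (limma, Benjamini-Hochberg over all 7739 probe sets). Without control replicate 1 the log2 difference was -1.07 ± 0.33 (adjusted p = 0.64), and without control replicate 2 it was -1.98 ± 0.40 (adjusted p = 0.18).

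The Hspa1b probe set (100946_at) had intensities of 1688, 67.7 and 257.5 in control replicates 1, 2 and 3, and of 281.5, 90.7 and 189.3 in the CF replicates. The groups overlapped, with the highest and the lowest value of all 6 mice both among the controls. The level in control replicate 1 was 10.4 times the mean of the other 2 controls, where the same ratio for Hspa1a was 2.90. On the log2 scale the SD among controls was 2.33, larger than that of 99.9% of all tested probe sets, while the SD of Hspa1a (0.93) was larger than that of 90.4%. The log2 difference was -0.87 ± 1.01 (95% interval -3.16 to 1.43, adjusted p = 0.90); leaving out control replicate 1 gave 0.36 and leaving out control replicate 2 gave -1.96, so the direction rests on single mice.

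**Figure D1:**
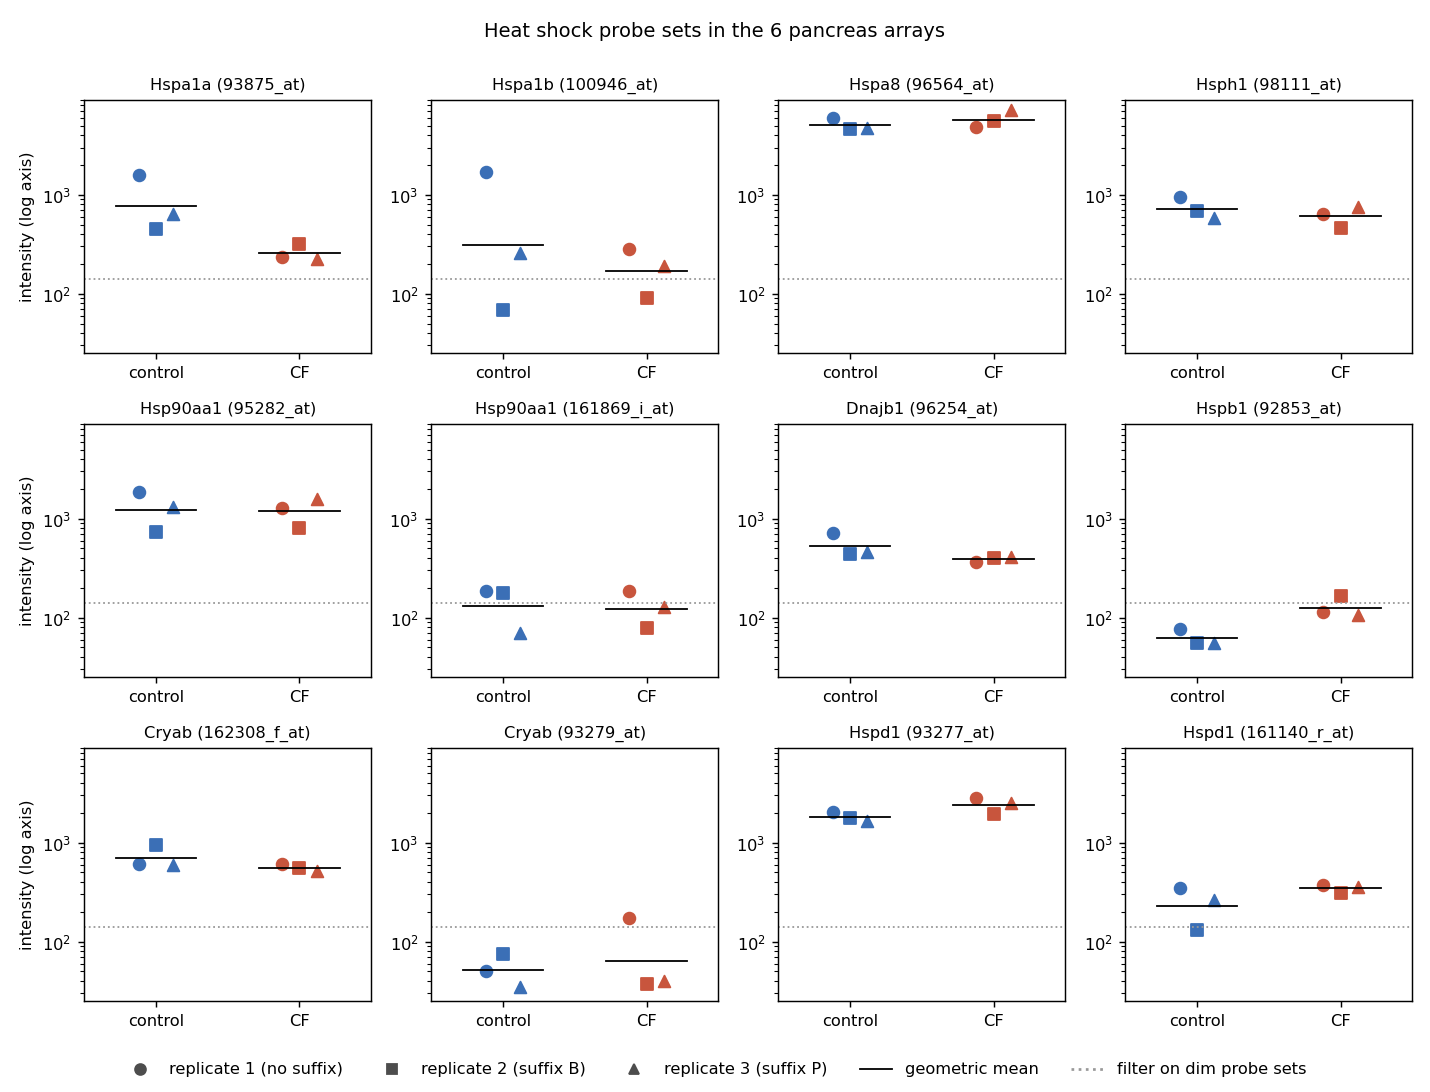
Intensity on a log axis of each of the 12 heat shock probe sets in the 3 control (blue) and 3 CF (red) arrays; marker shape gives the title suffix, the bar is the geometric mean and the dotted line the level of the filter on dim probe sets. Control replicate 1 (circle) is the highest array for Hspa1a (1579) and Hspa1b (1688), and the 3 CF values of Hspa1a lie below all 3 control values.

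The constitutive Hsp70, Hspa8 (Hsc70), which folds and sorts proteins in unstressed cells, differed little. Its probe set (96564_at) read 5918, 4643 and 4727 in controls and 4834, 5524 and 7135 in CF. The groups overlapped and the highest mouse was CF replicate 3. The log2 difference was 0.18 ± 0.18 (95% interval -0.24 to 0.60, adjusted p = 0.88). A log2 difference above about 0.60 or below about -0.24 thus lies outside the interval.

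The 2 measured cofactors of Hsp70 were lower in CF on average, and neither passed. Dnajb1 (Hsp40; 96254_at), which stimulates ATP hydrolysis by Hsp70, read 724, 439 and 463 in controls and 367, 396 and 412 in CF. The groups did not overlap, but the highest CF value was close below the lowest control value. The log2 difference was -0.43 ± 0.26 (95% interval -1.03 to 0.16, adjusted p = 0.77), and -0.20 without control replicate 1. Hsph1 (98111_at), which encodes an Hsp110 exchange factor, read 948, 679.7 and 576 in controls and 641, 465 and 748 in CF. Its groups overlapped, and the log2 difference was -0.24 ± 0.27 (95% interval -0.86 to 0.37, adjusted p = 0.89), or -0.04 without control replicate 1.

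Hsp90aa1, the inducible Hsp90 that matures kinases and steroid receptors, had closely similar group means. Its main probe set (95282_at) read 1861, 728 and 1316 in controls and 1287, 814 and 1584 in CF, with the suffix B array the lowest of its group in both. The log2 difference was -0.03 ± 0.36 (95% interval -0.86 to 0.79, adjusted p = 0.99). With the title suffix as a replicate block the SE was 0.20. The second probe set (161869_i_at; the letter marks a set with fewer probes than usual) read 185.8, 176 and 70.1 in controls and 188.1, 78.1 and 127.9 in CF. It passed the filter on the minimum of 3 arrays, and its difference was -0.10 ± 0.58.

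**Figure D2:**
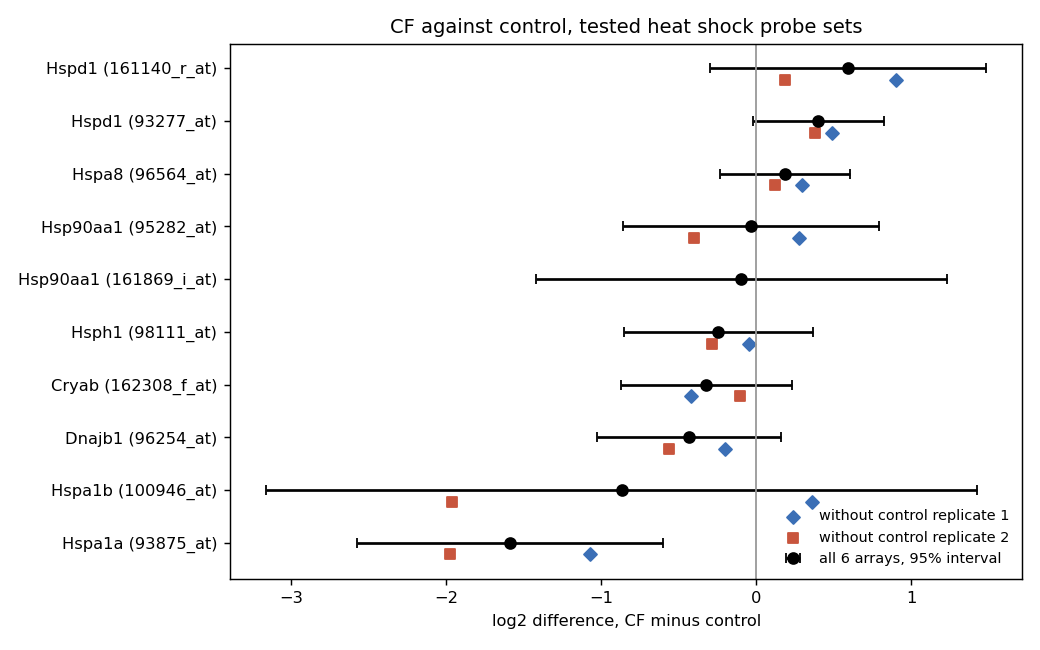
Log2 difference of CF minus control for the 10 tested heat shock probe sets with 95% intervals from limma (black), and the same difference without control replicate 1 (blue diamonds) or control replicate 2 (red squares); Hsp90aa1 (161869_i_at) fell under the filter in both. The interval of Hspa1a, -2.58 to -0.60, is the only one of the 10 that leaves out 0, before adjustment for all probe sets tested.

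Hspb1 (Hsp25, a small heat shock protein that also binds actin filaments) had low values in both groups. Its probe set (92853_at) read 77.7, 55 and 55.2 in the control mice and 113.4, 164.7 and 105.5 in the CF mice. All 3 CF mice were above all 3 controls, but only 1 of the 6 arrays exceeded the filter level of 140.2, so it was not among the tested probe sets. In a fit with no filter the log2 difference was 1.02 ± 0.24 with an unadjusted p of 0.0088 and an adjusted p of 0.54 (limma). With the floor under dim values raised to the 40th percentile the difference was 0.08, since 5 of its 6 values lie under that floor. The Hspb1 promoter is shown for comparison with those of Hspa1a and Hspa1b. It is the window at chr5:135887669-135887918 on the plus strand, with the same motif in capitals, 117 and 97 bases before the start.
Hspb1: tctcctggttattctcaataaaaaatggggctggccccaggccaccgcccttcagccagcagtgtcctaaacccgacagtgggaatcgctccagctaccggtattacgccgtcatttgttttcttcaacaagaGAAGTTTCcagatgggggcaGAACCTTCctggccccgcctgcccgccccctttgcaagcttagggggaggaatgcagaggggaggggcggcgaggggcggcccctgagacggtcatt

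RefSeq promoter windows were found for 6 of the 10 genes, and 4 of them held GAANNTTC or its reverse arrangement TTCNNGAA before the most upstream start. The share over all windows was 13.0%. These 4 were Hspa1a, Hspa1b, Hspb1 and Hsph1, the last with TTCTCGAA beginning 33 bases before the start. The Dnajb1 window held neither, and the Hspd1 window held neither at its most upstream start. At the second RefSeq start of Hspd1 the overlapping matches TTCCGGAA, GAAGGTTC and TTCTAGAA began 144, 139 and 134 bases before it. Hspa1a, Hspa1b and Hsph1, with a match, and Dnajb1, with none, were lower in CF on average. Hspb1, with matches but too dim to be tested, was higher, as was Hspd1, with matches only at its second start. The relation of motif and direction was not tested.

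Cryab, the small heat shock protein αB-crystallin, is abundant in muscle and lens. Its brighter probe set (162308_f_at; the letter f marks probes shared within a sequence family) read 608, 942 and 590.1 in controls and 613, 549 and 511 in CF, with control replicate 2 above the other 5 mice. The log2 difference was -0.32 ± 0.24 (95% interval -0.88 to 0.23, adjusted p = 0.82), and -0.11 without control replicate 2. The other probe set (93279_at) read 50.3, 75.8 and 35.1 in controls and 174.5, 37.4 and 39.9 in CF, with 3 of 6 values under the floor of 47.6, and was not tested. Both sets thus had 1 mouse apart from the rest, in different groups. Of the smooth muscle markers, 4 of 6 tested of 10 listed were lower in CF and 0 passed. Acta2, smooth muscle actin, had means of 642 and 82.8 in control and CF (-2.82 ± 0.44). Acta2 passed the filter only through the 3 control arrays, as its CF values (73.1, 98.7 and 76.7) lay under 140.2. Actg2 differed by -0.14, Tpm2 by -0.49 and Myl9 by 0.91. The summed level of the 9 smooth muscle markers on the array was 3386 to 4181 in controls and 2542 to 3098 in CF, and without Acta2 it was 2797 to 3174 and 2443 to 3025, which overlap. The part of smooth muscle in the Cryab values was not tested.

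Hspd1 (Hsp60), which folds imported proteins in the mitochondrial matrix, had 2 probe sets that pointed the same way. The brighter (93277_at) read 2059, 1778 and 1651 in controls and 2830, 1967 and 2491 in CF. The groups overlapped only in that CF replicate 2 lay under control replicate 1. The log2 difference was 0.40 ± 0.19 (95% interval -0.02 to 0.82, unadjusted p = 0.061, adjusted p = 0.69). With the replicate block the SE was 0.14 and the unadjusted p 0.030, and the adjusted p of 0.38 did not pass. The dimmer probe set (161140_r_at; the letter marks a set made under relaxed design rules) read 352, 129.7 and 263.6 in controls and 376, 311 and 354 in CF, a log2 difference of 0.59 ± 0.39 (adjusted p = 0.79) that was 0.18 without control replicate 2. Hspd1 has many pseudogenes, and reading of their transcripts by these probe sets was not tested.

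Set side by side, the 10 tested probe sets divided into 7 lower and 3 higher in CF, where 49.9% of all tested probe sets were lower and 50.1% higher. Their median log2 difference was -0.17, against 0.00 over all tested, and they ranged from -1.59 to 0.59. The groups did not overlap in 2 of 10, Hspa1a and Dnajb1, both lower, where 13.0% of all tested did not overlap, 5.62% lower and 7.37% higher. Without control replicate 1 the median was 0.27, with 5 higher and 4 lower of 9 that passed the filter. Without CF replicate 2 it was 0.08, with 5 higher and 5 lower. The median and its direction therefore rest on single mice.

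Control replicate 1 carried the highest control value of 9 of the 10 tested heat shock probe sets; the brighter Cryab set was the exception. Over all tested probe sets that share was 30.5%. Among all 6 mice it was the highest for 5 of 10, which were Hspa1a, Hspa1b, Hsph1, Hsp90aa1 and Dnajb1, against 15.3% of all tested. The spread among controls was larger than that among CF mice for 8 of 10, against 53.7%. Control replicate 2 was the lowest control in 6 of 10, against 38.7%.

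The title suffix was taken to pair the arrays, from the correlation of their deviations over all tested probe sets. No label gives such a pairing. Within suffixes, Hspa1a was lower in CF by differences of -2.75, -0.49 and -1.53 for replicates 1, 2 and 3, and Dnajb1 by -0.98, -0.15 and -0.17. Hspa1b differed by -2.58, 0.42 and -0.44. Hspd1 was higher in each suffix, by 0.46, 0.15 and 0.59 on its brighter probe set and by 0.09, 1.26 and 0.43 on its dimmer one, and Hspb1 by 0.55, 1.58 and 0.93. All 3 suffixes gave the same sign in 4 of 10 tested probe sets, 2 lower and 2 higher, where 17.4% of all tested were lower and 17.8% higher in all 3. With the suffix as a replicate block limma called 10 of all probe sets (0.129%) and 0 of the 10 heat shock probe sets.

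**Figure D3:**
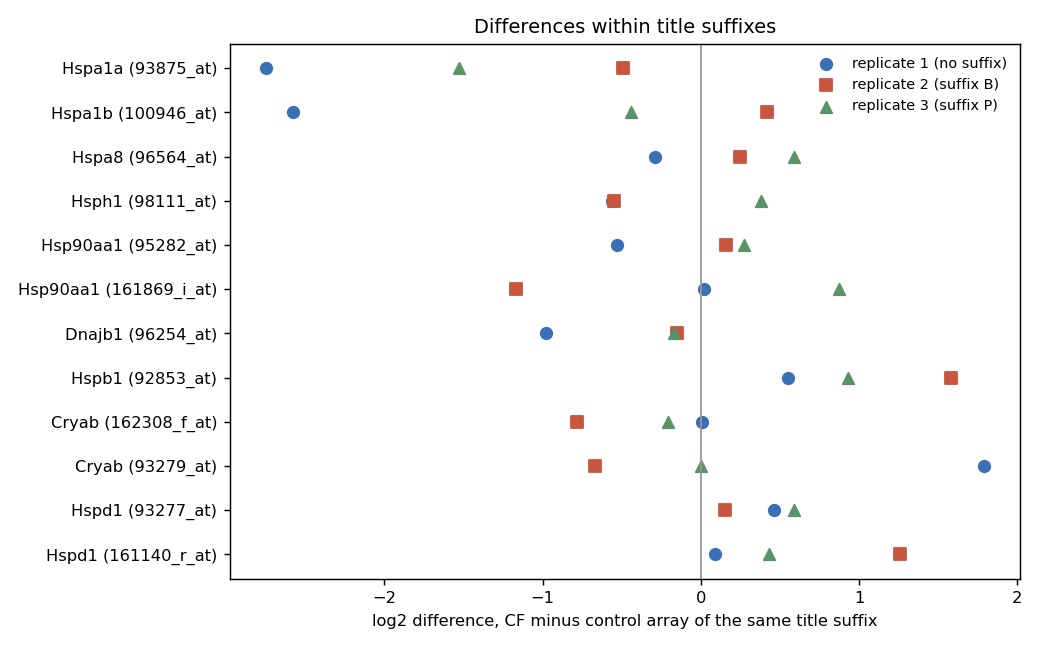
Log2 difference between the CF and the control array of the same title suffix for the 12 heat shock probe sets, on values floored at 47.6. Each marker sets 1 CF mouse against the control mouse of the same suffix, a pairing that no label gives. Hspa1a and Dnajb1 lie left of 0 in all 3 pairs and Hspd1 and Hspb1 right of 0 in all 3; the first pair of Hspa1a and Hspa1b lies at -2.75 and -2.58.

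Markers of some other cell types were also high on control replicate 1, and in bulk pancreas fewer cells of a type and less RNA per cell cannot be told apart. Of 8 adipocyte markers on the array, 7 were highest there, and their summed intensity was 20591 in control replicate 1, 5789 and 10558 in the other controls and 4512 to 6528 in CF. Adipoq, the hormone adiponectin, read 5591 there and 187 and 1899 in the other controls; Lpl read 2912, 775 and 1993, while Lep was not highest there (2878, 3941 and 3127). Of 12 leukocyte markers 8 were highest there, with sums of 15004 in control replicate 1, 7758 and 10179 in the other controls and 4372 to 8680 in CF. Ighm, the antibody heavy chain, read 5355 there and 500.2 and 2423 in the other controls. Of 12 stellate and fibroblast markers 8 were highest there, and sums were 14720 to 24912 in controls and 12354 to 17638 in CF. Islet markers ran the other way, with a sum of 19206 in control replicate 1, 77740 and 53471 in the other controls and 22365 to 59688 in CF. None of 9 duct, 8 islet or 7 neural and lens markers was highest on control replicate 1, and 2 of 7 endothelial markers were. Of 8 tested duct markers 7 were higher and 1 lower in CF, with sums of 15390 to 20885 in controls and 19142 to 23815 in CF. Lower in CF were 7 of 7 tested adipocyte, 11 of 11 leukocyte, 10 of 12 stellate and fibroblast and 10 of 10 acinar markers. Islet markers gave 4 higher and 4 lower. In each of these lists 0 passed the threshold. No marker was listed at 0. The part of these cell types in the heat shock values was not tested.

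Acinar markers, which define the tissue, were among the strongest signals on all 6 arrays. The 10 acinar markers on the array summed to 767449 to 1056354 in controls and 724503 to 821774 in CF, and Ctrb1, a digestive protease, had means of 111630 and 93684. Skeletal muscle markers were dim, with 5 of 10 bright enough to be tested, and summed to 1425 to 2077 in controls and 1328 to 2080 in CF. The ratio of the 3′ to the 5′ Gapdh probe set, a sign of RNA quality, was 0.80, 1.45 and 0.84 in control replicates 1, 2 and 3. In CF replicates 1, 2 and 3 the ratio was 0.72, 0.76 and 0.87, so it was highest on the suffix B array in controls only. For Actb it ran 1.74, 2.16 and 1.93 over the controls and 1.75, 2.14 and 1.94 over CF, highest on the suffix B array of both groups. Hspa1b, Hsp90aa1 (95282_at) and Hspd1 (161140_r_at) were each lowest of their group on those arrays. The part of RNA quality in their values was not tested.

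Immediate early genes are known to rise with handling and stress of a tissue. Of 16 tested of 19 listed, 6 were highest on control replicate 1 (15.3% of all tested), and 10 were lower and 6 higher in CF (median -0.19), with 0 past the threshold and 4 at an unadjusted p under 0.05 (7.38% of all tested). The 18 on the array summed to 17881 in control replicate 1, 15973 and 17584 in the other controls and 15066 to 18301 in CF. Zfp36, which destabilises inflammatory mRNAs, read 520, 157.5 and 238 in controls and 1131, 1821 and 448 in CF (1.86 ± 0.56, adjusted p = 0.47), with control replicate 1 above CF replicate 3. Jund and Klf4, transcription factors, differed by -0.62 ± 0.19 (adjusted p = 0.47) and -0.998 ± 0.32 (adjusted p = 0.50), with no overlap between groups. The suffix B array was the lowest of both groups for 4 of the 16 (Fos, Egr1, Nr4a1 and Klf4). The same held for 3 of the 10 heat shock probe sets, where 16.6% of all tested had this order. Other lists had it more often: 6 of 7 adipocyte, 8 of 12 stellate and fibroblast and 5 of 11 ER chaperone genes. Of 10 acinar markers 0 had it.

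The wider chaperone system was described with 1 probe set per gene. Of the heat shock factors and their regulators, HSF1 itself was not measured, as no probe set was assigned to its gene. Hsf2 and Hsf4 were under the floor on all arrays, and Hsbp1, a small protein that binds HSF1, differed by 0.09 ± 0.39. Among 4 tested of 9 other Hsp70 and Hsp110 genes, 2 were higher and 2 lower: Hspa4l, an Hsp110, read 236, 289 and 282 in controls and 205.5, 114.7 and 164.4 in CF (-0.77 ± 0.36, adjusted p = 0.69), Hspa4 differed by 0.55 ± 0.44 and the mitochondrial Hspa9 by 0.19 ± 0.19. Among 3 tested of 6 other small heat shock proteins all 3 were lower, Hspb2 by -0.54 ± 0.27, Cryaa by -0.21 ± 0.27 and Hspb8 by -0.08 ± 0.23.

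Other J proteins were mostly higher in CF, with 8 higher and 1 lower of 9 tested (median 0.10), 0 past the threshold and 2 at an unadjusted p under 0.05, where 7.38% of all tested had one. Dnajc2, which works at the ribosome, read 368, 519.5 and 541 in controls and 679.9, 640.5 and 719 in CF (0.53 ± 0.23, adjusted p = 0.67). Dnajb4, a cytosolic relative of Dnajb1, read 263.6, 179.6 and 213 in controls and 111.3, 35.1 and 149.2 in CF (-1.23 ± 0.53, adjusted p = 0.67). Dnajb4 was the 1 lower gene of the 9, and its CF replicate 2 value lay under the floor of 47.6. Dnaja3, of the mitochondria, differed by 0.28 ± 0.18. Groups did not overlap in 4 of the 9, where 13.0% of all tested did not overlap.

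Co-chaperones of Hsp70 and Hsp90 gave 5 higher and 10 lower of 15 tested (median -0.08). Fkbp5, an Hsp90-bound immunophilin that glucocorticoids are known to induce, read 809, 678 and 257 in the control mice and 1486, 3537 and 1246 in the CF mice. All 3 CF mice were above all controls (1.85 ± 0.50, unadjusted p = 0.0051, adjusted p = 0.36). Ppp5c, an Hsp90-bound phosphatase, differed by -1.04 ± 0.60, with CF replicate 1 (108) far under the others, and Chordc1, an Hsp90 partner, by -0.36 ± 0.23.

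Most tested chaperonins and mitochondrial partners had a higher mean in CF, where 50.1% of all tested probe sets did. Of 8 TRiC subunits, which form the cytosolic chaperonin for actin and tubulin, 6 were higher and 2 lower (median 0.22), led by Cct8 (0.64 ± 0.30, adjusted p = 0.69), Cct3 (0.45 ± 0.25) and Cct4 (0.22 ± 0.19). Of 6 tested mitochondrial chaperones and proteases, 5 were higher (median 0.13), among them Hspe1, the co-chaperonin of Hspd1, at 0.20 ± 0.24, and Lonp1 at 0.39 ± 0.44, while Yme1l1 differed by -0.24 ± 0.31. Of 11 tested ER chaperones 8 were higher (median 0.16), with Dnajb9 at 0.39 ± 0.17 (adjusted p = 0.67), Canx at 0.30 ± 0.16, and Serpinh1, the HSF1-inducible chaperone of collagen, at -0.74 ± 0.39. In each of these chaperone lists 0 genes passed the threshold, and the direction of a list was not tested.

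**Figure D4:**
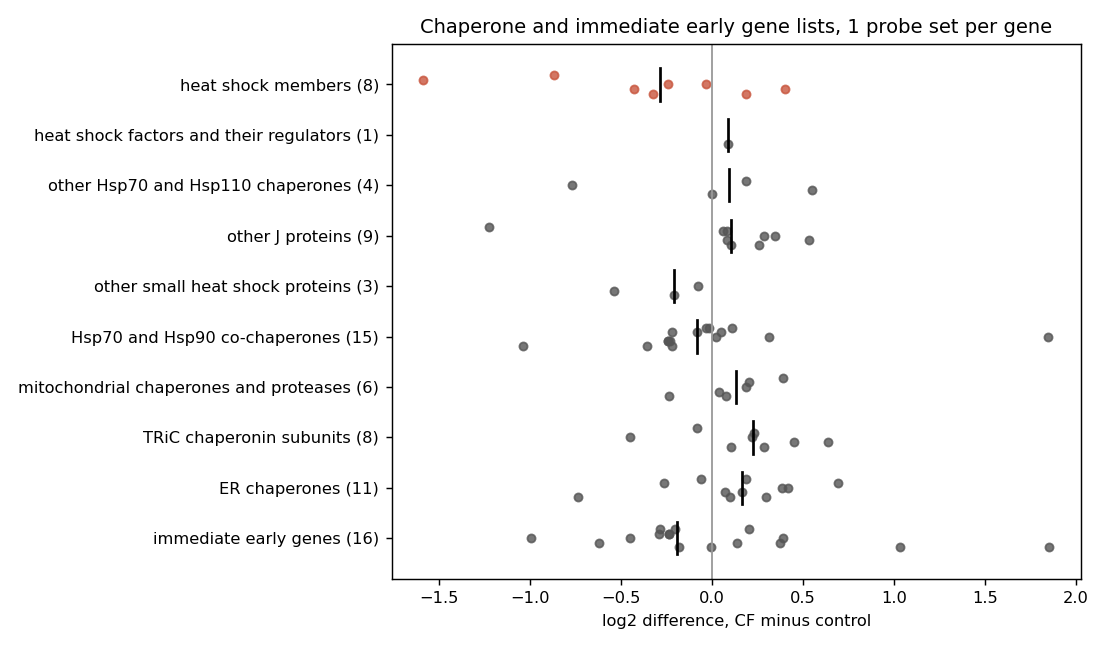
Log2 difference of CF minus control for each tested gene of the heat shock set (red) and of the other chaperone and immediate early lists (grey), 1 probe set per gene, with the number of tested genes in brackets and the median as a black bar. The co-chaperone at 1.85 is Fkbp5, the immediate early gene at 1.86 is Zfp36, and the lowest heat shock gene, at -1.59, is Hspa1a.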

How the data were processed

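Pancreas RNA of 3 control and 3 CF mice was measured on 6 arrays. The authors deposited 1 linear-scale intensity per probe set, made with software not given in the sources used here. Trimmed means (2% left out at each end) were 500.27 to 500.30 on all arrays, so no further scaling was done. The genotype in each description set the group. Whether separate litters or dates were used is not given, so a difference of litter or date between the groups could not be told apart from genotype. The p-values set the group difference against the spread between these mice within groups, moderated over all tested probe sets.

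A floor was set at the 20th percentile of all values (47.6), log2 was taken, and probe sets with at least 3 arrays above the pooled 40th percentile (140.2) were tested, 7739 of 12488 after leaving out 66 control probe sets. The main fit used limma 3.58.1 (R 4.3.3), genotype only, with an intensity trend and Benjamini-Hochberg adjustment; differences understate changes of dim genes. Of the probe sets, 10855 had 1 symbol, 396 several and 1237 none; 10839 matched RefSeq (GRCm38.p6).

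Each array's deviation from its group mean was taken over all tested probe sets. Between the groups, arrays of 1 title suffix correlated at 0.23 to 0.26 and others at -0.18 to -0.05. Deviations within a group cancel, so positive correlations within a suffix force negative ones between suffixes. The gap between them is thus partly built in. On this ground the suffix was taken to pair the arrays, for the within-suffix differences and the block only. No label says that the suffix marks a shared litter or day. The pairing was thus read from these same data, and the main fit did not use it.

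The heat shock genes and all lists were chosen with earlier results of these data known. Named genes are all heat shock genes, the 3 of smallest p in each list of chaperones or immediate early genes, and members of the marker lists among the 2 of highest mean and the 2 of smallest p; Hsf2, Hsf4, Fos, Egr1 and Nr4a1 were named after their values were seen. The script was tested on simulated data. Alternatives covered scaling, floor, filter, variance model, array weights, the block and leaving out each array.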

Additional observations from a re-analysis of the deposited data

How the results depend on the processing

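No heat shock probe set passed an adjusted p under 0.05 under quantile normalization, either other floor, either other filter, no intensity trend, robust variances, array weights, the replicate block, or without any single array; 0 passed at 0.1, and 1 had an unadjusted p under 0.05. The median of their differences ran from -0.42 (without control replicate 3) to 0.27 (without control replicate 1). Leaving out 1 array changed the sign for Hspa1b (-1.96 to 0.36; above 0 without control replicate 1), for Hsp90aa1 (95282_at; -0.40 to 0.27, with 0.27 and 0.02 without control replicates 1 and 3 and 0.24 without CF replicate 2), for its second probe set (-0.55 to 0.23; above 0 without CF replicate 2) and for the dim Cryab set (-0.25 to 0.69; below 0 without CF replicate 1). Hspa1a stayed below 0 in all 15 alternatives (-1.98 to -1.07; adjusted p 0.18 to 0.75), as Hspd1 stayed above 0. Over all probe sets the 5 calls became 10 with the floor at the 40th percentile, 0 with no filter (limma; 773 of 12422 at an unadjusted p under 0.05), 3 with no trend, 12 with array weights, 10 with the replicate block, 17 at a threshold of 0.1, 571 at an unadjusted p under 0.05, and 1 to 10 with an array left out; the cause was not tested. The block changed no call of a heat shock gene. The 3 arrays per group limit the precision, and dim probe sets such as that of Hspb1 have values near background.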
